A study of Homo sapiens with 8 samples.

Results

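The genes described here carry the symbols of mitochondrial ribosomal proteins, and the place of each product in the ribosome was not checked. They were chosen by symbol, as every gene named MRPL or MRPS with a number and at most 1 letter from A to C, which gave 76 genes of the 63677 in the count table, 47 with a large subunit symbol and 29 with a small subunit symbol. In the series, total RNA of JJN3 and H929, established human multiple myeloma cell lines, was sequenced after 24 h with 50 nM THZ1, a covalent inhibitor of the transcriptional kinase CDK7, or with the solvent DMSO. There were 2 libraries in each of the groups JJN3 DMSO, JJN3 THZ1, H929 DMSO and H929 THZ1, 8 in all. The design text once speaks of a knockdown, but names no target. Total counts on genes ran from 17476443 to 19194371 per library. The labels do not say whether the 2 libraries of a group came from separate cultures, so p-values measure only the spread between these libraries. Without a spike-in, every value is a level relative to the rest of the library, and fewer cells and less RNA per cell cannot be told apart.

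The mitochondrial ribosome is built in the matrix from 2 ribosomal RNAs made from mitochondrial DNA and from proteins whose genes all lie in the nucleus. It makes the few subunits of the respiratory chain and ATP synthase that mitochondrial DNA encodes. About its RNA core sit proteins with bacterial counterparts, and around these lie proteins found only in mitochondria. By the unified names of ribosomal proteins, 46 of the 76 genes have a bacterial counterpart and 30 are particular to mitochondria. Some symbols mislead on the subunit, since MRPS18A and MRPS30 encode proteins of the large subunit, named mL66 and mL65.

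The libraries labelled H929 stood apart by treatment in more than drug response. On the log2 scale and across genes, libraries of the same group correlated at 0.980 to 0.990, and DMSO and THZ1 libraries of JJN3 at 0.960 to 0.965. H929 DMSO and H929 THZ1 libraries correlated at 0.734 to 0.783, which overlaps the 0.732 to 0.778 found between libraries of JJN3 and of H929. Lambda genes held 98.0% and 99.99% of the light chain V gene counts in the H929 DMSO libraries and 0.211% and 0.212% in the H929 THZ1 libraries, and 0.257% to 0.391% in JJN3. FGFR3, which the t(4;14) translocation known from H929 activates, was at 2.42 and 15.8 normalised CPM (read counts scaled to the size of the library) under H929 DMSO and at 741 and 708 CPM under H929 THZ1. MAF, the target of t(14;16), was at 968 and 903 CPM in the first and at 143 and 155 CPM in the second. In these 4 libraries treatment and the source of the cells therefore cannot be told apart, and their values are given for the libraries as labelled. JJN3 was tested on its own 4 libraries, without those labelled H929. The 8 plasma cell markers checked summed to 1449 to 2075 CPM in JJN3, 1778 to 1920 CPM under H929 DMSO and 6815 to 6928 CPM under H929 THZ1, and of these SLAMF7 was at 0.108 CPM in 1 H929 DMSO library. The 9 markers of other blood cells summed to 5.06 to 7.76, 1.45 to 2.05 and 35.0 to 35.3 CPM in the same order, with PPBP at 0 in every library and CD3E holding 33.6 and 34.3 CPM of the last. Their part in the results below was not tested.

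In JJN3, the transcripts of the mitochondrial ribosome fell broadly after THZ1. The 76 genes together held 0.690% and 0.744% of all counts in the DMSO libraries and 0.429% and 0.433% in the THZ1 libraries. Of the 75 genes that passed the filter on low counts, 47 were lower and 1 was higher, where a call needs an adjusted p under 0.05 in edgeR's quasi-likelihood test and a log2 fold change beyond 0.5. Among all 13984 genes tested, 21.3% were lower and 20.6% higher by the same rule. The median log2 fold change was -0.71 over the 75 genes, a level of 0.611 of that in DMSO, and 0.00 over all genes. Both THZ1 libraries lay below both DMSO libraries for 67 of the 75 genes and above them for 3, and 5 overlapped. The first ordering held for 41.4% of all genes tested, and the second was not counted over all genes. With a log2 fold change beyond 1 the count was 18 of 75, where 7.19% of all genes passed. MRPL30 was not tested, since it held 11 counts over all 8 libraries.

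**Figure D1:**
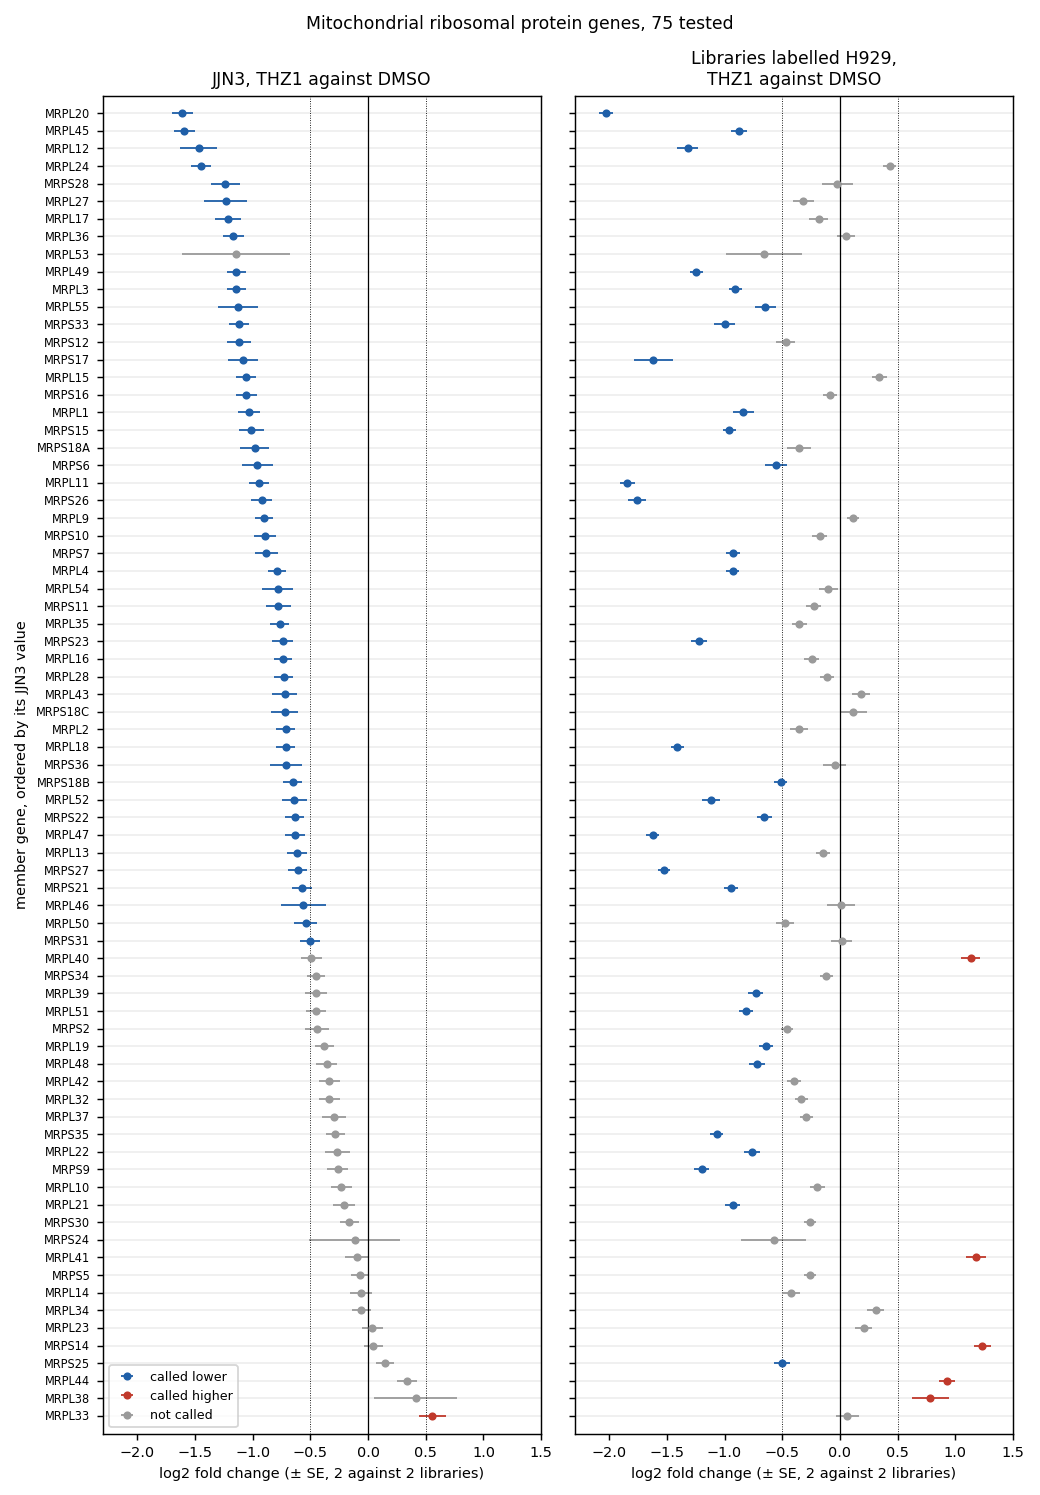
Log2 fold change of THZ1 against DMSO for the 75 genes tested, with JJN3 on the left and the H929 labels on the right. Points are edgeR estimates from 2 against 2 libraries, bars are standard errors, dotted lines mark 0.5 and colours the calls. In JJN3 69 of 75 points lie below 0, and on the right 59 of 75.

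The fall covered both subunits. Of the genes with a large subunit symbol 27 of 46 were lower and 1 higher, with a median log2 fold change of -0.68, and of those with a small subunit symbol 20 of 29 were lower and 0 higher, with a median of -0.71. Genes with a bacterial counterpart were lower in 31 of 45 cases, with a median of -0.77. Those particular to mitochondria were lower in 16 of 30, with a median of -0.55. The difference between these groups was not tested.

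MRPL20 on chromosome 1 (GRCh37 1337289 to 1342673), whose bacterial counterpart bL20 is needed early in the assembly of the large subunit, had the largest fall in JJN3. It was at 103 and 110 CPM in the DMSO libraries and at 32.6 and 36.4 CPM in the THZ1 libraries. The groups lay well apart, with a log2 fold change of -1.61 (SE 0.091, adjusted p = 7.71e-07, edgeR). MRPL45, mL45, part of the contact between the ribosome and the inner membrane, went from 76.3 and 80.3 CPM to 24.2 and 27.1 CPM. Its log2 fold change was -1.59 (SE 0.093), nearly that of MRPL20. MRPL12, a protein of the mobile stalk that recruits translation factors and that also binds the mitochondrial RNA polymerase, was at 16.6 and 15.0 CPM and then at 4.89 and 6.33 CPM. It fell by 1.47 on the log2 scale (SE 0.163).

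MRPL24, a protein near the exit of the peptide tunnel and 1 of the 3 genes with the highest level per length, was at 259 and 289 CPM in DMSO and at 102 and 96.1 CPM in THZ1. Its fall of 1.45 on the log2 scale (SE 0.089) left the THZ1 libraries at 0.366 of the DMSO level. MRPS28, bS1m of the small subunit, was at 35.1 and 35.0 CPM and then at 16.5 and 12.9 CPM. MRPL27, whose bacterial counterpart reaches toward the peptidyl transferase centre, went from 18.8 and 23.4 CPM to 7.03 and 10.6 CPM. MRPL17, bL17m, was at 43.8 and 48.6 CPM and then at 21.4 and 18.1 CPM. MRPL36, a small zinc-binding protein of the large subunit, was at 86.1 and 93.7 CPM and then at 37.6 and 41.4 CPM. In the last 4 of these genes too both THZ1 libraries were below both DMSO libraries, with log2 fold changes from -1.17 for MRPL36 to -1.24 for MRPS28.

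MRPL33, bL33m, was the only member called higher in JJN3, and only by a little. It was at 16.03 and 15.82 CPM in DMSO and at 24.8 and 21.6 CPM in THZ1, a log2 fold change of 0.56 (SE 0.118, adjusted p = 0.00196, edgeR). The call was lost without the first THZ1 library (0.45) and with scaling to library totals (0.45). MRPL33 shares exon sequence on the same strand with BABAM2, so its reads may be incompletely counted.

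**Figure D2:**
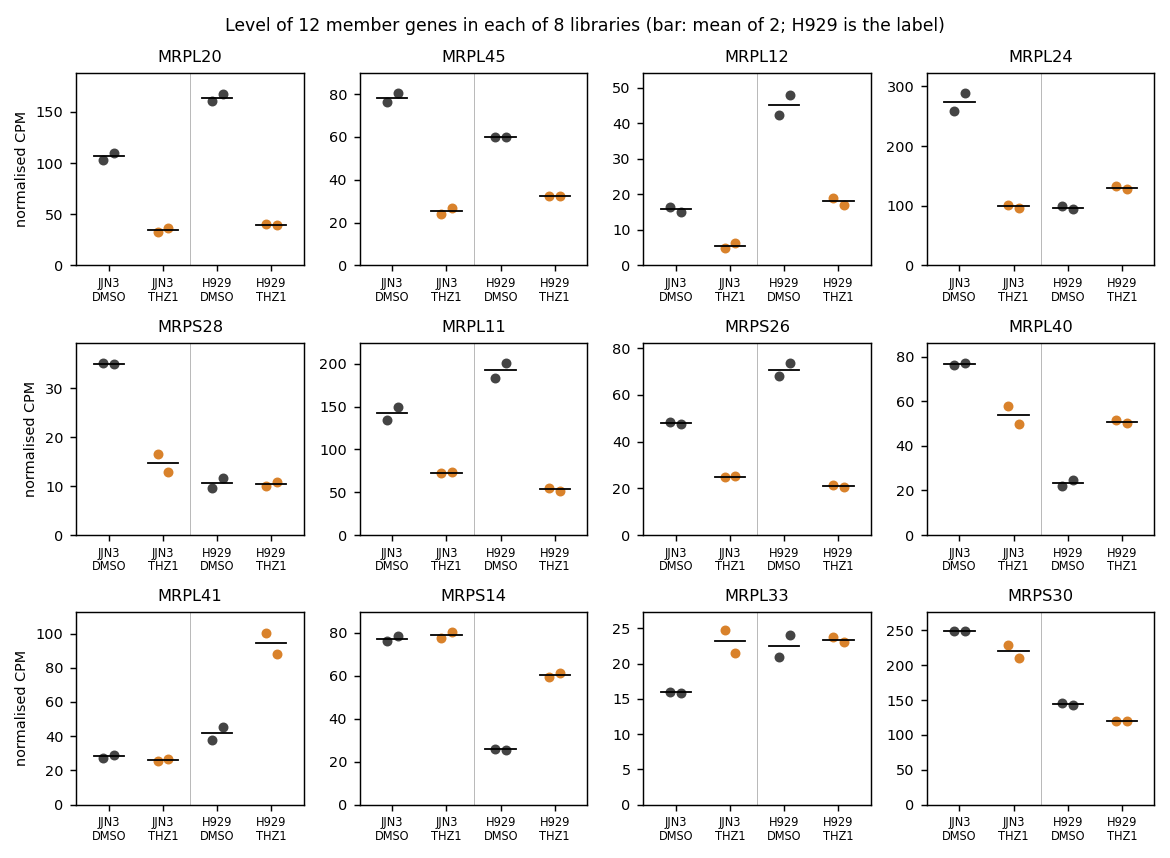
Normalised CPM of 12 member genes in each library, with DMSO in grey, THZ1 in orange and a bar at the mean of 2 libraries. MRPL20 is lower in the THZ1 libraries of both pairs of groups. MRPL24 falls from 259 and 289 to 102 and 96.1 CPM in JJN3 alone. MRPS14 stays between 76.1 and 80.2 CPM in JJN3 but is higher under H929 THZ1 than under H929 DMSO.

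Members with a well known place in the ribosome or in its evolution varied in size of change. MRPS12, uS12m, a protein of the decoding centre, was at 56.7 and 57.7 CPM in DMSO and at 23.6 and 28.5 CPM in THZ1 in JJN3, a fall of 1.12 on the log2 scale (SE 0.104). MRPS30, mL65, was at 249 and 249 CPM and then at 229 and 211 CPM, and its log2 fold change of -0.16 (SE 0.082) did not pass (adjusted p = 0.108, edgeR). The MRPS18 paralogues, which derive from 1 bacterial protein and now occupy different sites, all fell in JJN3. MRPS18A, in the large subunit, was at 36.7 and 33.6 CPM and then at 19.8 and 15.4 CPM, a log2 fold change of -0.99 (SE 0.127). MRPS18B, mS40, was at 133 and 128 CPM and then at 78.1 and 85.3 CPM, with -0.66 (SE 0.081). MRPS18C, which sits in the place of bacterial bS18, was at 24.0 and 27.5 CPM and then at 15.8 and 15.1 CPM, with -0.72 (SE 0.119).

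The genes spanned a wide range of levels. Per length, as mean CPM over the 8 libraries divided by kilobases of the canonical transcript, MRPL37 stood highest at 184, followed by MRPS15 at 176 and MRPL24 at 170. The order differed between groups, where the highest mean was that of MRPL24 in JJN3 DMSO (310 CPM per kilobase), MRPL37 in JJN3 THZ1 (201), MRPL20 under H929 DMSO (234) and MRPS34 under H929 THZ1 (165). MRPL37, mL37, was at 362 and 380 CPM in JJN3 DMSO and at 328 and 269 CPM in JJN3 THZ1, and did not pass the fold limit (-0.30, SE 0.102). MRPS15, uS15m, was at 279 and 301 CPM and then at 158 and 127 CPM, a fall of 1.01 on the log2 scale (SE 0.107). The lowest were MRPL30 at 0.0169, MRPS24 at 2.13 and MRPL53 at 2.41 CPM per kilobase, all of which share exons on the same strand with other genes or readthrough transcripts, where reads assigned to more than 1 gene may not be counted. In JJN3, MRPS24 had 0.776 and 0.819 CPM in DMSO and 0.733 and 0.722 CPM in THZ1. MRPL53 had 1.24 and 1.13 CPM and then 0.794 and 0.278 CPM, and its log2 fold change of -1.14 (SE 0.470) did not pass (adjusted p = 0.0553, edgeR). It passed with scaling to library totals (-1.25) and without the first THZ1 library (-2.05), which left only the THZ1 library with 0.278 CPM. Across the 75 genes, the JJN3 log2 fold change had a Spearman rho of 0.00 with the DMSO level and of 0.08 with the length of the canonical transcript, given as a description over genes of the same libraries. For the length of the gene it was 0.29. Under the H929 labels the rho was -0.435 with the H929 DMSO level, -0.140 with transcript length and -0.100 with gene length.

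In the GENCODE annotation on GRCh37, exons of 32 members overlap those of another protein-coding gene, 13 on the same strand. The counts were made on an Ensembl annotation of hg19, where these overlaps may differ. Whether counting used the strand is not given in the sources used here. Among the tested members without such an overlap 29 of 44 were lower in JJN3, with a median log2 fold change of -0.73, and among those with one 18 of 31, with -0.64. Of the genes named for their change, level or role, MRPL11, MRPL37, MRPL47, MRPS14, MRPS18A, MRPS18C and MRPS27 overlap an exon on the opposite strand, and MRPL12, MRPL33, MRPL38, MRPS17 and MRPS28 one on the same strand, as do the 3 lowest genes above.

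The promoters of the members were read from the RefSeq table of windows from 250 bases before to 50 bases after the start, in GRCh38.p14. There 67 of the 76 genes had a window, and 27305 genes in all. The ETS core CCGGAAG, bound by GABPA and its relatives, stood on either strand in the window of 29 of the 67 members (43.3%), of 12.2% of all genes and of 23.0% of the genes tested in JJN3 that had a window. The YY1 core AAGATGGC was present in 21 members (31.3%), in 3.52% of all genes and in 6.80% of those tested. The letters TATAAA were found in 3 members (4.48%), against 14% of all genes and 8.31% of those tested. Of the 41 members with a window that were lower in JJN3, 21 held the ETS core and 14 the YY1 core. Of the other 26 members 8 held the ETS core and 7 the YY1 core. These 26 include MRPL30, which was not tested and holds an ETS core. These matches describe the sequence only, and no binding was measured. Whether a core goes with the change of a gene was not tested.

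The 150 bases just before the start are shown for 3 members with a core there that were lower in both comparisons. They are also shown for MRPL33 and MRPL40, which were higher in 1 comparison each and also hold a core there. All were picked for holding a core and after their values had been seen. They cannot show whether members called lower and higher differ in their cores. Capitals mark the ETS and YY1 cores on either strand, each sequence is 5′ to 3′ on the strand of its gene, and positions are those of GRCh38.p14.
MRPL20, chr1:1407294-1407443, minus strand: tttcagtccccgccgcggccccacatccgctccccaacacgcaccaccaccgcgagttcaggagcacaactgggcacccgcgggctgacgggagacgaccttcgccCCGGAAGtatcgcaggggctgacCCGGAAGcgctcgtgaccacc
MRPL47, chr3:179604647-179604796, minus strand: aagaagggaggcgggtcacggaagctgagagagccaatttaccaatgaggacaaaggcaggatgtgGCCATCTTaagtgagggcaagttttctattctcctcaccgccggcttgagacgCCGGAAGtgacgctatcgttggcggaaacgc
MRPS26, chr20:3045902-3046051, plus strand: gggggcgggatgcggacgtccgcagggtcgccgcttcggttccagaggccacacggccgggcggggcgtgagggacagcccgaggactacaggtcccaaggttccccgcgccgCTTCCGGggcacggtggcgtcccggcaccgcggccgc
MRPL33, chr2:27771569-27771718, plus strand: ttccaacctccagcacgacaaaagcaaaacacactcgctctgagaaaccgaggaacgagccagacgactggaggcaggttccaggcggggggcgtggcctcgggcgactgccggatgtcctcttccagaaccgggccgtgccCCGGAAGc
MRPL40, chr22:19432395-19432544, plus strand: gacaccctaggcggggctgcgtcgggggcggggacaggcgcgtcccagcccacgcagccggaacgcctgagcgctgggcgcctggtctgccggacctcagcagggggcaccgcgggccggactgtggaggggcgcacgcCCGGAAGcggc
In the bases shown MRPL20 holds 2 ETS cores, MRPL47 a YY1 core and an ETS core, and MRPS26 an ETS core in the reverse direction. A RefSeq window of MRPL20 also holds a YY1 core, outside the bases shown. MRPL33, higher in JJN3, and MRPL40, higher under the H929 labels, each hold an ETS core, for which they were picked. Of the other members called higher, MRPL38 has both cores in its RefSeq windows, and MRPL41, MRPL44 and MRPS14 have neither.

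MRPL46 and MRPS11 were the only members whose genes lie within 100000 bases of each other. They are read in opposite directions from starts 62 bases apart on chromosome 15, MRPL46 on the minus strand up to 89010621 and MRPS11 on the plus strand from 89010684 (GRCh37). The stretch between them is shown because both genes must be started from it or beside it.
Between MRPL46 and MRPS11, chr15:89010622-89010683, plus strand, GRCh37: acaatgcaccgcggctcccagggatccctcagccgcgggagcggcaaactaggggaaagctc
This stretch holds neither core, while the RefSeq window of MRPL46, which reaches past it, holds a YY1 core and that of MRPS11 neither. MRPL46 was at 9.47 and 11.1 CPM in JJN3 DMSO and at 8.19 and 5.67 CPM in JJN3 THZ1, a log2 fold change of -0.56 (SE 0.193). MRPS11 was at 72.5 and 82.1 CPM and then at 49.1 and 40.2 CPM, with -0.78 (SE 0.108). Both were called lower in JJN3 and neither under the H929 labels (0.01 and -0.23). MRPL46 shares exon sequence with another coding gene on its strand. These 2 genes were picked for their position after their values had been seen.

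Between the libraries labelled H929, the genes were on balance lower in the THZ1 libraries, but with exceptions. Their share of all counts was 0.617% and 0.635% under H929 DMSO and 0.455% and 0.438% under H929 THZ1. Of 75 genes tested 32 were lower and 5 higher, where 32.6% of all 14863 genes tested were lower and 33.1% higher. The median log2 fold change was -0.42 over the members and 0.01 over all genes. The standard deviation of the log2 fold changes was 0.679 over the members, against 0.462 in JJN3. Over all genes tested it was 2.713, against 0.920 in JJN3, so the spread was wider for all genes too. Both THZ1 libraries lay below both DMSO libraries for 57 members and above them for 11. The first ordering held for 45.5% of all genes, and the second was not counted over all genes. Beyond a log2 fold change of 1 there were 13 members lower, where 21.2% of all genes passed. By symbol, 18 of 46 large subunit genes were lower and 4 higher, and 14 of 29 small subunit genes were lower and 1 higher. Genes with a bacterial counterpart were lower in 18 of 45 cases and those particular to mitochondria in 14 of 30.

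MRPL20 again had the lowest log2 fold change, -2.03 (SE 0.060, adjusted p = 5.02e-14, edgeR). It was at 160 and 167 CPM under H929 DMSO and at 40.3 and 39.6 CPM under H929 THZ1. MRPL11, at the base of the stalk, went from 184 and 200 CPM to 55.1 and 51.6 CPM. MRPS26, a small subunit protein particular to mitochondria, went from 68.0 and 73.5 CPM to 21.2 and 20.4 CPM. Their log2 fold changes were -1.84 (SE 0.063) and -1.76 (SE 0.078), close to that of MRPL20. MRPL47, uL29m at the tunnel exit, was at 158 and 160 CPM and then at 51.4 and 51.2 CPM. MRPS17, uS17m, was at 10.9 and 9.03 CPM and then at 3.31 and 3.17 CPM. MRPS27, a pentatricopeptide repeat protein of the small subunit, was at 252 and 244 CPM and then at 85.7 and 85.4 CPM. MRPL18, whose bacterial counterpart binds 5S ribosomal RNA, was at 172 and 165 CPM and then at 65.9 and 60.6 CPM. MRPL12 was at 42.4 and 47.9 CPM and then at 19.0 and 17.0 CPM. In the last 5 of these genes too the groups did not overlap, with log2 fold changes from -1.62 for MRPL47 to -1.32 for MRPL12.

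Of the 5 genes that were higher under H929 THZ1, none was called in JJN3, and the difference between the comparisons itself passed for all but MRPL38. MRPS14, uS14m of the small subunit, was at 26.1 and 25.4 CPM under H929 DMSO and at 59.4 and 61.2 CPM under H929 THZ1, a log2 fold change of 1.23 (SE 0.074). In JJN3 it was at 76.1 and 78.6 CPM in DMSO and at 77.8 and 80.2 CPM in THZ1. MRPL41, mL41, was at 38.0 and 45.5 CPM and then at 100.4 and 88.2 CPM under the H929 labels, with 1.18 (SE 0.085), and between 25.7 and 29.1 CPM in all JJN3 libraries. MRPL40, mL40, encoded in the region of chromosome 22 lost in the 22q11 deletion syndrome, was at 22.0 and 24.6 CPM and then at 51.7 and 50.2 CPM, with 1.13 (SE 0.081). In JJN3 it moved the other way, from 76.3 and 77.2 CPM to 58.0 and 49.9 CPM, just short of the fold limit at -0.49 (SE 0.091), and past it with DESeq2 (-0.51) and with scaling to library totals (-0.60). MRPL44, mL44, related to ribonuclease III, was at 33.4 and 35.2 CPM under H929 DMSO and at 64.4 and 65.5 CPM under H929 THZ1. Its log2 fold change was 0.93 (SE 0.070) there and 0.34 (SE 0.086) in JJN3. MRPL38, mL38, was at a low level, 4.52 and 5.04 CPM under H929 DMSO and 7.82 and 8.55 CPM under H929 THZ1, with 0.78 (SE 0.159).

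Some of the largest JJN3 falls were not found between the H929 labels, and for MRPL24, MRPS28, MRPL36 and MRPL17 the difference between the comparisons passed its own test. MRPL24 was at 99.5 and 93.9 CPM under H929 DMSO and at 133 and 127 CPM under H929 THZ1, a log2 fold change of 0.43 (SE 0.057) that was short of the fold limit. MRPS28 was at 9.57 and 11.7 CPM and then at 10.1 and 10.8 CPM, and MRPL36 at 35.8 and 39.1 CPM and then at 39.8 and 37.7 CPM, so that the groups overlapped for both. MRPL17 was at 43.3 and 43.7 CPM and then at 41.0 and 35.4 CPM, with -0.18 (SE 0.081). For MRPS28 all 4 H929 libraries lay below the JJN3 THZ1 libraries, and for MRPL36 they overlapped them. MRPS12 (-0.47, SE 0.080) and MRPS18A (-0.35, SE 0.101) were short of the fold limit, and MRPS12 passed it without the first DMSO library (-0.55) or the first THZ1 library (-0.60). MRPS18B (-0.51, SE 0.055) was just past the limit, and not so without the second DMSO library (-0.47) or the second THZ1 library (-0.48). MRPS18C (0.12, SE 0.118) did not pass the test. MRPS30 was at -0.26 (SE 0.052).

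**Figure D3:**
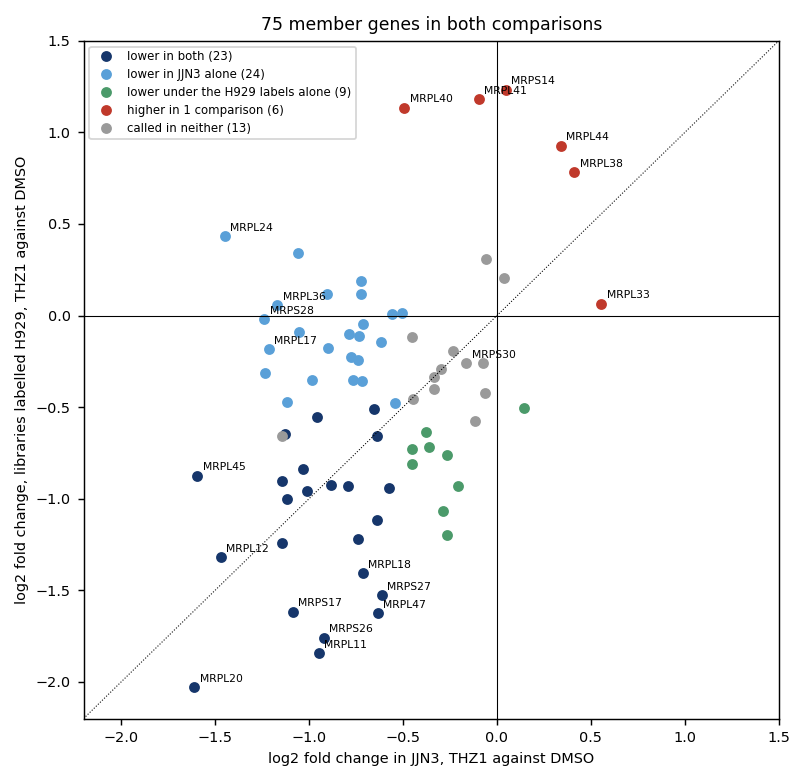
Log2 fold change of each of the 75 genes in JJN3 (x axis) and between the libraries labelled H929 (y axis), coloured by calls, with the dotted line at equal values. The 23 genes lower in both lie at the lower left, MRPL20 farthest, and the 5 genes higher under the H929 labels lie at the top.

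Set side by side, 23 of the 75 genes were lower in both comparisons, where 10.1% of the 12787 genes tested in both were. They are MRPL1, MRPL3, MRPL4, MRPL11, MRPL12, MRPL18, MRPL20, MRPL45, MRPL47, MRPL49, MRPL52, MRPL55, MRPS6, MRPS7, MRPS15, MRPS17, MRPS18B, MRPS21, MRPS22, MRPS23, MRPS26, MRPS27 and MRPS33. These are 12 genes with a large subunit symbol and 11 with a small one. They make up 48.9% of the members lower in JJN3 and 71.9% of those lower under the H929 labels. Among all genes, 1287 of the 12787 tested in both comparisons were lower in both. By single comparison, the lower genes numbered 2972 of 13984 for JJN3 and 4847 of 14863 for the H929 labels. Whether the overlap among members differs from that among all genes was not tested. A further 24 members were lower in JJN3 alone, 9 under the H929 labels alone, and 13 were called in neither. No member was called in opposite directions, except MRPL40 under the alternatives that called it lower in JJN3. Both log2 fold changes were below 0 for 58 genes and above 0 for 5. Among all genes tested, 6998 of 13984 were below 0 in JJN3 and 7358 of 14863 under the H929 labels. For all genes only being lower in both comparisons was counted, so the other joint counts have no share beside them. Across the 75 genes the Pearson correlation of the log2 fold changes was 0.39 and the Spearman correlation 0.27, against 0.15 and 0.22 over the 12787 genes.

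The difference between the 2 responses was put to its own test, the interaction of line and treatment in a fit of the 8 libraries, and it carries the doubt about the H929 labels. Of 75 members, 25 had a higher and 9 a lower log2 fold change under the H929 labels than in JJN3, where 28.1% and 25.5% of all 16122 genes tested did. The median difference was 0.16 over the members and 0.04 over all genes. The largest was that of MRPL24, 1.89 (SE 0.105, adjusted p = 2.87e-10, edgeR), followed by MRPL40 with 1.64 (SE 0.125). At the other end MRPL47 had -0.98 (SE 0.106), MRPS9 -0.92 (SE 0.110) and MRPS27 -0.91 (SE 0.097). For MRPL12 (0.16, SE 0.185), MRPS15 (0.06, SE 0.127) and MRPS18B (0.15, SE 0.099) the difference did not pass, and for MRPL20 it was -0.41 (SE 0.109), past the test but short of the fold limit.

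Other genes of the mitochondrial ribosome and its use were counted for comparison. Of 7 subunit genes whose symbols fall outside the MRPL and MRPS pattern, 3 were lower in JJN3 and 0 higher, with a median log2 fold change of -0.42. These were MRP63 (-1.16, SE 0.092), ICT1, a rescue factor built into the large subunit (-0.96, SE 0.094), and AURKAIP1 (-0.50, SE 0.080). Under the H929 labels 3 of the 7 were lower and 1 higher, with a median of -0.10, and GADD45GIP1, the gene that was higher there (0.55, SE 0.060), was at -0.42 in JJN3, short of the fold limit. The counts here and in the lists that follow are to be read beside 21.3% of all genes lower and 20.6% higher in JJN3, and 32.6% and 33.1% under the H929 labels. Of 36 genes for translation factors and for assembly of the ribosome, 21 were lower and 1 higher in JJN3, with a median of -0.68. Examples are MRM1, a methyltransferase of the large ribosomal RNA (-1.31, SE 0.181), the helicase DDX28 (-1.05, SE 0.127) and the initiation factor MTIF2 (-0.87, SE 0.100), and MTRF1L, a release factor, was the gene that rose (0.85, SE 0.168). Under the H929 labels 17 of the 36 were lower and 5 higher, with a median of -0.42, among them the elongation factors TUFM (-0.97, SE 0.056) and GFM1 (-1.36, SE 0.052), which were at 0.16 and 0.30 in JJN3, not past the call limits.

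Genes of the cytosolic ribosome held few calls in JJN3. Of 81 tested, 8 were lower and 9 higher, with a median log2 fold change of 0.02, which was -0.09 with scaling to library totals. Without the first THZ1 library 14 were lower and 1 higher, and without the second 6 and 15. Under the H929 labels 33 of 82 were lower and 12 higher, with a median of -0.32.

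The 13 protein genes of the mitochondrial genome, which the mitochondrial ribosome translates and which are transcribed by a polymerase of their own, moved the other way in JJN3. All 13 were higher, with a median log2 fold change of 1.19 and a range from 0.78 for MT-ATP6 to 1.60 for MT-ND5 (SE 0.286). Their share of all counts was 2.96% and 1.40% in the DMSO libraries and 3.97% and 5.08% in the THZ1 libraries, so that the DMSO libraries themselves lay far apart. Without the second DMSO library 9 of 13 were higher, with a median of 0.68, and without the first 13, with 1.80. Under the H929 labels 2 of 13 were higher, with a median of 0.32 and shares of 2.64% and 2.46% in DMSO and 2.67% and 3.67% in THZ1. That count was 8 without the first H929 THZ1 library and 0 without the second.

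**Figure D4:**
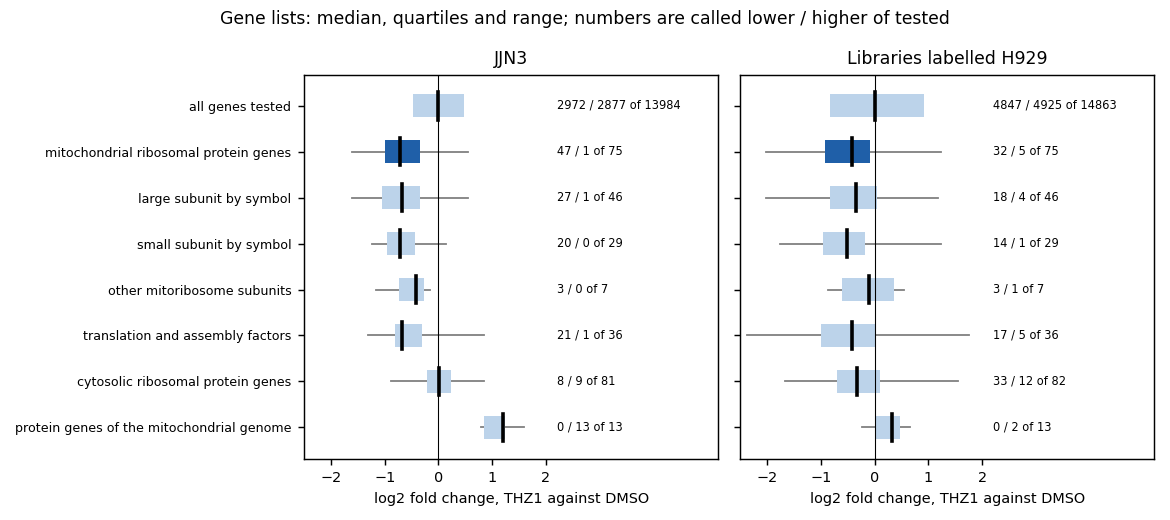
Log2 fold change of THZ1 against DMSO by gene list, for JJN3 (left) and the H929 labels (right). Black marks are medians, boxes run between the quartiles and lines span the whole range (not drawn for all genes), and the numbers give genes called lower and higher of those tested. The mitochondrial ribosomal protein genes have medians of -0.71 and -0.42, and the protein genes of the mitochondrial genome 1.19 and 0.32.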

How the data were processed

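Total RNA was sequenced as single-end reads, and per the labels and the study's methods the authors aligned them with STAR 2.5.2a to hg19, keeping reads with 1 alignment, and made the deposited counts per Ensembl gene with featureCounts. The strand setting is not given in the sources used here. The deposited tables of the authors' DESeq2 comparisons hold fold changes and p-values, which were not used; only the gene symbols paired with IDs were read from one of them. The 76 symbols matched 86 IDs, and where a symbol had several the ID with the most counts was kept, which dropped 10.

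Counts as deposited were fitted with edgeR 4.0.16 in R 4.3.3 (TMM scaling, filterByExpr, quasi-likelihood test, Benjamini-Hochberg over all genes tested), for each line alone and as an interaction over all 8 libraries. A call needed an adjusted p under 0.05 and a log2 fold change beyond 0.5. Each standard error (SE) was derived from the test, as the absolute log2 fold change divided by the square root of its F statistic. CPM were scaled by TMM over all libraries. Levels per length used canonical transcripts of GENCODE on GRCh37, with 74 members matched by ID and 2 by symbol. The fits were tested on simulated counts. DESeq2 1.42.0, other scalings and filters, a replicate block and leaving out libraries were tried. Counting intervals and floors would cover counting error only, and none is printed. With 2 libraries a group and 17476443 to 19194371 counts each, members at a few CPM are imprecise.

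The members and the lists were chosen with earlier results of these data known. Members named are the up to 8 called with the largest falls and rises in each line, the 3 highest and 3 lowest per length, the MRPS18 genes, MRPS12, MRPL12 and MRPS30.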

Additional observations from a re-analysis of the deposited data

Results flagged for a closer look

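The response differed between the comparisons, by an interaction test over all 8 libraries, for a number of the named genes. Among all 16122 genes tested, 28.1% had a higher and 25.5% a lower log2 fold change under the H929 labels than in JJN3. Among the 75 members it was higher for 25 and lower for 9. Among the named genes it was higher by 1.89 for MRPL24, 1.64 for MRPL40, 1.29 for MRPL41, 1.23 for MRPL36, 1.23 for MRPS28, 1.20 for MRPS14 and 1.04 for MRPL17. Smaller differences of the same sign were 0.93 for MRPL27, 0.85 for MRPS18C, 0.73 for MRPL45, 0.66 for MRPS12, 0.64 for MRPS18A and 0.60 for MRPL44. The difference was -0.98 for MRPL47, -0.91 for MRPS27, -0.88 for MRPL11, -0.83 for MRPS26 and -0.69 for MRPL18. Without the second JJN3 THZ1 library the difference of MRPS18A was 0.48, short of the fold limit. Because the H929 DMSO and H929 THZ1 libraries also differ in light chain, FGFR3 and MAF transcripts, a difference of treatment response and a difference in the source of the cells cannot be told apart here.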

How the results depend on the processing

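Under the alternatives tried, the number of members called lower stayed within 1.5 times its value in all 3 comparisons, except where the call rule changed. In JJN3 a log2 limit of 1 left 18 lower and 0 higher, and the adjusted p alone gave 60 lower and 2 higher. Of all 13984 genes, 1006 were lower and 1397 higher at that limit, and 4212 and 4035 by adjusted p alone. Scaling to library totals moved the median of all genes in JJN3 from 0.00 to -0.10 and that of the members to -0.81, and left 0 higher. Under the H929 labels the limit of 1 left 13 lower and 3 higher, and the adjusted p alone 51 lower and 10 higher. Of all 14863 genes, 3146 were lower and 3501 higher at that limit, and 6081 and 6095 by adjusted p alone. For the difference between the lines, library totals moved the members' median to 0.30. Leaving out 1 library at a time, JJN3 had 45 to 51 members lower, 0 to 1 higher and a median of -0.74 to -0.66, where the call of MRPL33 was lost without the first THZ1 library. The H929 labels had 31 to 34 lower, 5 higher and a median of -0.45 to -0.35, and the difference 9 to 12 lower, 22 to 28 higher and a median of 0.13 to 0.24. A lone library in a group was assumed to vary like the others.

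With the replicate number as a block there were 48 lower and 1 higher in JJN3, 32 and 5 under the H929 labels, and 9 and 24 for the difference. Same-numbered libraries did not deviate together across genes (r = 0.0113 in JJN3 and -0.0107 under the H929 labels). Whether they were prepared together cannot be read from this correlation. MRPL53 passed in JJN3 with the block (-1.169, adjusted p = 0.03577, edgeR).

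Of the named genes, a change of sign came only where the value under that alternative was not past the test. In JJN3 MRPS14 was at -0.056 with library totals, and MRPL38 ran from -0.004 to 0.723 without 1 library. Under the H929 labels MRPS28 was at 0.002 with DESeq2, at 0.004 with its size factors and at 0.028 with library totals. Without 1 library there, MRPS28 ran from -0.172 to 0.148, MRPL33 from -0.046 to 0.187, MRPL36 from -0.018 to 0.136 and MRPS18C from -0.031 to 0.280. For the difference, MRPS30 was at 0.055 with library totals, and without 1 library MRPL37 ran from -0.101 to 0.180, MRPL53 from -0.076 to 1.416 and MRPS15 from -0.073 to 0.247. MRPS18B was called lower under the H929 labels by a narrow margin, and with DESeq2 (-0.49), its size factors (-0.49), library totals (-0.46) or without the second DMSO or THZ1 library (-0.47 and -0.48) it was not.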
